A study of Homo sapiens with 16 samples.

Results

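The genes described here encode the core proteins of the cytosolic ribosome. They were taken by their names, as every gene called RPL or RPS with a number (and a closing A or X where there is one) plus RPLP0, RPLP1, RPLP2 and RPSA, if counted in both experiments, with RPL22 and RPS27 left out by the rule. This gave 75 genes of the 28685 counted in both experiments, 45 of the large (60S) subunit and 30 of the small (40S) subunit, and all 75 were abundant enough to be tested.

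U2OS cells, a human osteosarcoma line, were compared in 4 groups of 4 poly-A RNA-seq libraries. The groups were MDM2 W329G cells on 5-fluorouracil (5-FU, 50 µM), MDM2 W329G cells on DMSO, wild-type (WT) cells on 5-FU at the same dose, and WT cells on DMSO, each for 24 h. The W329G cells carry a tryptophan-to-glycine change in MDM2, introduced with CRISPR/Cas9, and each genotype was held as 2 lines (cells 1 and cells 2), so that genotype rests on 4 lines in all. The work was done in 2 experiments read by different sequencing vendors; within a group, experiment 1 gave replicate 1 (cells 1) and replicate 2 (cells 2), and experiment 2 gave replicate 3 (cells 1) and replicate 4 (cells 2).

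Ribosomal protein mRNAs are among the most abundant of a growing cell, and most of them begin with a 5′ terminal oligopyrimidine (TOP) tract, a C followed by a run of pyrimidines through which mTORC1 and LARP1 set their translation and stability. When ribosome assembly is disturbed, RPL5 and RPL11 bound to 5S rRNA can leave the nucleolus, bind the central region of MDM2 and release p53 from it, which is called the ribosomal or nucleolar stress response. 5-FU is built into RNA and disturbs rRNA processing, besides blocking thymidylate synthase. The design asks what W329G does to p53 regulation.

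The starts of the members on which the results turn are shown for their TOP tracts, each as 40 bases before and 20 bases from an annotated RefSeq start (GRCh38.p14 promoter table), on the gene's own strand, with the tract in capitals. RPL3 lies at chr22:39319604-39319663 (minus strand), RPL10A at chr6:35468361-35468420 (plus), RPL12 at chr9:127451387-127451446 (minus), RPL11 at chr1:23691766-23691825 (plus), RPS19 at chr19:41860215-41860274 (plus), RPL13A at chr19:49487568-49487627 (plus) and RPS9 at chr19:54200818-54200877 (plus).
RPL3: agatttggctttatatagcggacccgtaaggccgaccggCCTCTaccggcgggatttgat
RPL10A: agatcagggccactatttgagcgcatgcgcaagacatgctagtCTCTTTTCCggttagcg
RPL12: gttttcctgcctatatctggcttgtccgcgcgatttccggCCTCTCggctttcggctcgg
RPL11: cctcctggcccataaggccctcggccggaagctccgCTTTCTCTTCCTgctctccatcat
RPS19: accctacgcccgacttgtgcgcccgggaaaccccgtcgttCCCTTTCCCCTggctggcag
RPL13A: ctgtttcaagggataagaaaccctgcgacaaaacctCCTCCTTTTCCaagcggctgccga
RPS9: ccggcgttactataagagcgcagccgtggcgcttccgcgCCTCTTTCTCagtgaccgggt
The table held 75 starts of 60 members and was not matched to the others, RPL5, RPL7, RPL8, RPL23, RPL23A, RPL30, RPL37, RPS2, RPS15A and RPS20 among them. A tract of at least 5 bases, C first and then pyrimidines only, beginning within 5 bases of the start on the gene's strand, was found at 55 of the 75 starts (73.3%) and at 51 of the 60 members (85.0%), against 21.1% of all 35116 starts in the table. RPL3, with the largest decreases described next, had the shortest tract allowed, 5 bases, and RPS19, the 1 member that rose in WT cells, had 11 bases at this start. In the whole 300-base entries, from 250 before the start to 50 from it on, the ETS-family letters CCGGAAG stood on either strand at 34.7% of member starts against 10.3% of all starts and the E-box CACGTG at 5.33% against 7.26%.

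Across the series, the libraries held between 24715999 and 56877328 counts. Mitochondrially encoded genes took between 7.14% and 31.8% of the joined counts. Of 8 mesenchymal and bone markers 7 averaged at least 1 CPM (counts scaled to a common library size by TMM), with TWIST1 below 1 CPM in every library. So did 4 of 4 epithelial and 3 of 4 neural markers, so this cut does not set the lists apart. Summed per library, mesenchymal and bone markers gave 6270 to 15600 CPM, epithelial markers at most 86.0 and neural markers at most 80.7 CPM. None of 4 blood markers averaged 1 CPM, and CD3E and HBB stayed below 1 CPM everywhere. The drug and edit showed in the p53 targets: MDM2 read 58.1 to 102 CPM in the W329G 5-FU libraries, 42.7 to 117 CPM in the W329G DMSO libraries, 193 to 286 CPM in the WT 5-FU libraries and 42.6 to 79.0 CPM in the WT DMSO libraries. The difference of its 5-FU responses, W329G minus WT, was -1.85 ± 0.27 on the log2 scale (SE, edgeR adjusted p = 0.00218), and CDKN1A, which encodes the cell cycle inhibitor p21, gave -1.73 ± 0.23 (adjusted p = 0.00174).

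The 75 genes together took 5.44 ± 1.44% of the counts in nuclear genes in the W329G 5-FU libraries and 6.48 ± 2.08% in the W329G DMSO libraries, against 5.54 ± 1.45% in the WT 5-FU libraries and 5.76 ± 1.46% in the WT DMSO libraries (SD, n = 4 each). Since these are shares of a library, a lower share and less RNA per cell cannot be told apart. Most of this spread lay between the experiments, since WT DMSO libraries averaged 7.02% in experiment 1 and 4.5% in experiment 2. W329G DMSO replicate 1 stood apart with 9.22%, where the other W329G DMSO library of that experiment had 6.96%. It also had the lowest mitochondrial share, 7.14%, followed by its 5-FU partner with 7.98%. For the medians and the called members, values without this library and its 5-FU partner are given beside those with them. In the genotype comparisons this was done in both of the fits available: in the sums per line, where W329G line 1 then rests on experiment 2 alone while the other lines span both experiments, and in single libraries with a term for experiment.

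**Figure D1:**
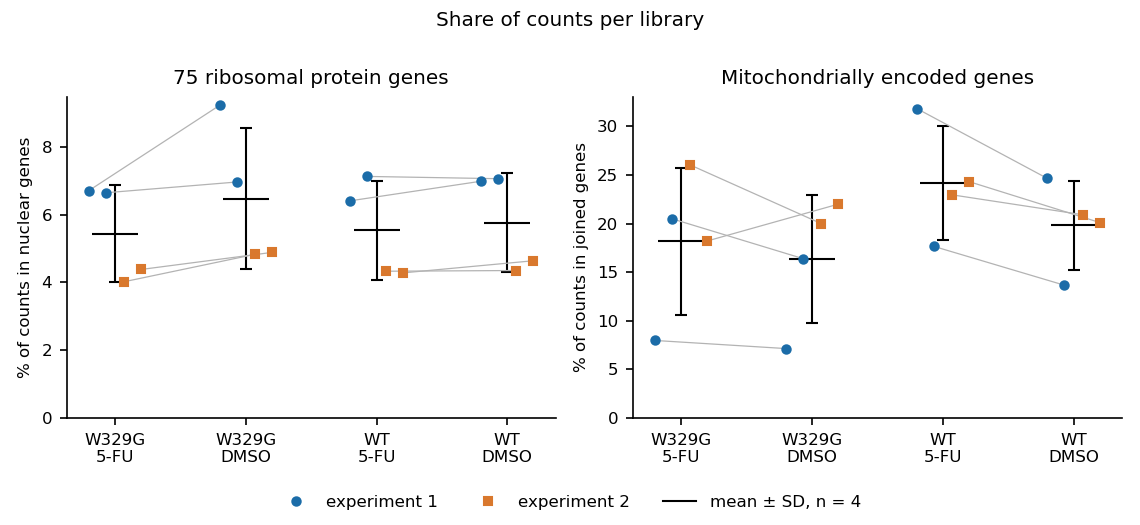
Share of the 75 ribosomal protein genes in counts of nuclear genes (left, percent) and of mitochondrially encoded genes in all joined counts (right, percent), per library; grey lines join the 5-FU and DMSO libraries of a line and experiment, bars give mean ± SD (n = 4). In every group the experiment 1 libraries lie above those of experiment 2 in the left panel, and W329G DMSO replicate 1 is highest at 9.22%.

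RPL3, a large-subunit protein at the peptidyl transferase centre, had the largest fitted 5-FU response of the 75 in both genotypes. Its gene (ENSG00000100316) spans chr22:39312882-39320389 in the coordinates of the experiment 1 files, which are those of GRCh38, and holds 3 snoRNA genes, SNORD43, SNORD83A and SNORD83B. Its level in W329G cells was 894, 748, 504 and 491 CPM on 5-FU (replicates 1 to 4), against 2352, 1923, 1016 and 765 CPM on DMSO. In WT cells it was 953, 1144, 547 and 470.4 CPM on 5-FU, against 1834, 1893, 836 and 704 CPM on DMSO. Within each experiment and genotype, both 5-FU libraries lay below both DMSO libraries.
The fitted log2 fold change was -1.10 ± 0.15 in W329G (edgeR quasi-likelihood test, adjusted p = 0.00307) and -0.72 ± 0.15 in WT (adjusted p = 0.00674), with SE as the error. Pair by pair, the log2 change was -1.40, -1.36, -1.01 and -0.64 in W329G and -0.94, -0.73, -0.61 and -0.58 in WT. Experiment 1 alone gave -1.38 and experiment 2 alone -0.85 in W329G, and -0.82 and -0.60 in WT. Neither experiment on its own, with 2 libraries a group, passed the threshold (adjusted p 0.142 to 0.827). Of all genes, these fits called 0.0% in W329G in either experiment. In WT they called 1.28% in experiment 1 and 0.0% in experiment 2. Without the pair of WT replicate 1 the adjusted p in WT was 0.0558. The difference of the responses, W329G minus WT, was -0.39 ± 0.21 and was not called (adjusted p = 0.651). W329G lines did not differ from WT lines past the threshold on 5-FU (-0.13 ± 0.15, adjusted p = 0.616) or on DMSO (0.31 ± 0.15, adjusted p = 0.299); without the W329G replicate 1 pair the DMSO value was -0.03 in the sums and 0.11 in single libraries.

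RPL5, one of the pair of proteins that carry 5S rRNA and bind MDM2, was lower on 5-FU in all 8 pairs, by less than RPL3. Its gene (ENSG00000122406, chr1:92832025-92841924) holds SNORA66 and SNORD21, and counts of the overlapping gene DIPK1A came to 4.65% of those of RPL5 in experiment 1, which cannot be told apart if counting ignored strand. RPL5 read 729, 705, 529 and 599 CPM in W329G cells on 5-FU, against 1165, 897, 650.3 and 927 CPM on DMSO. WT cells had 886, 775, 496 and 719.8 CPM on 5-FU, against 1049.7, 902, 571 and 1004 CPM on DMSO. The libraries of the treatments overlapped in both genotypes, while the 5-FU library was the lower one of each pair.
Its log2 fold change was -0.50 ± 0.18 in W329G (edgeR adjusted p = 0.223) and -0.30 ± 0.18 in WT (adjusted p = 0.346), neither past the threshold. With a term for each pair of libraries, since the 2 libraries of a pair come from the same line, the W329G value was -0.49 ± 0.10 and passed (adjusted p = 0.0091); without the pair of W329G replicate 1 this fit gave -0.42 ± 0.11 (adjusted p = 0.059). The responses differed by -0.20 ± 0.25 (adjusted p = 0.959). Between genotypes RPL5 differed by -0.11 ± 0.15 on 5-FU (adjusted p = 0.663) and by 0.12 ± 0.15 on DMSO (adjusted p = 0.697), the DMSO value turning to -0.09 in the sums and -0.03 in single libraries without the W329G replicate 1 pair.

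RPL11, the partner of RPL5 on 5S rRNA, showed the least movement of the 3. The gene (ENSG00000142676, chr1:23691779-23696425) holds no snoRNA gene, and its pseudogenes took 0.122% of the family's counts in experiment 1 and 0.0152% in experiment 2. In W329G cells RPL11 had 673, 624, 491 and 549.5 CPM on 5-FU, against 919, 617, 560.0 and 689 CPM on DMSO. In WT cells it had 582, 654, 489.5 and 471 CPM on 5-FU, against 561, 621, 693 and 670.5 CPM on DMSO. The WT values split by experiment: both pairs of experiment 1 were slightly higher on 5-FU (log2 change 0.05 and 0.07) and both of experiment 2 were lower (-0.50 and -0.51).
The fitted log2 fold change was -0.25 ± 0.15 in W329G (edgeR adjusted p = 0.502) and -0.23 ± 0.15 in WT (adjusted p = 0.403). Experiment 1 alone gave 0.07 in WT and experiment 2 alone -0.50. The difference of the responses was -0.02 ± 0.21 (adjusted p = 0.997), and its sign depended on the experiment, at -0.32 in experiment 1 and 0.23 in experiment 2. W329G lines differed from WT lines by 0.13 ± 0.11 on 5-FU (adjusted p = 0.476) and by 0.10 ± 0.11 on DMSO (adjusted p = 0.662), with -0.09 and -0.02 on DMSO in the same fits without that pair.

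**Figure D2:**
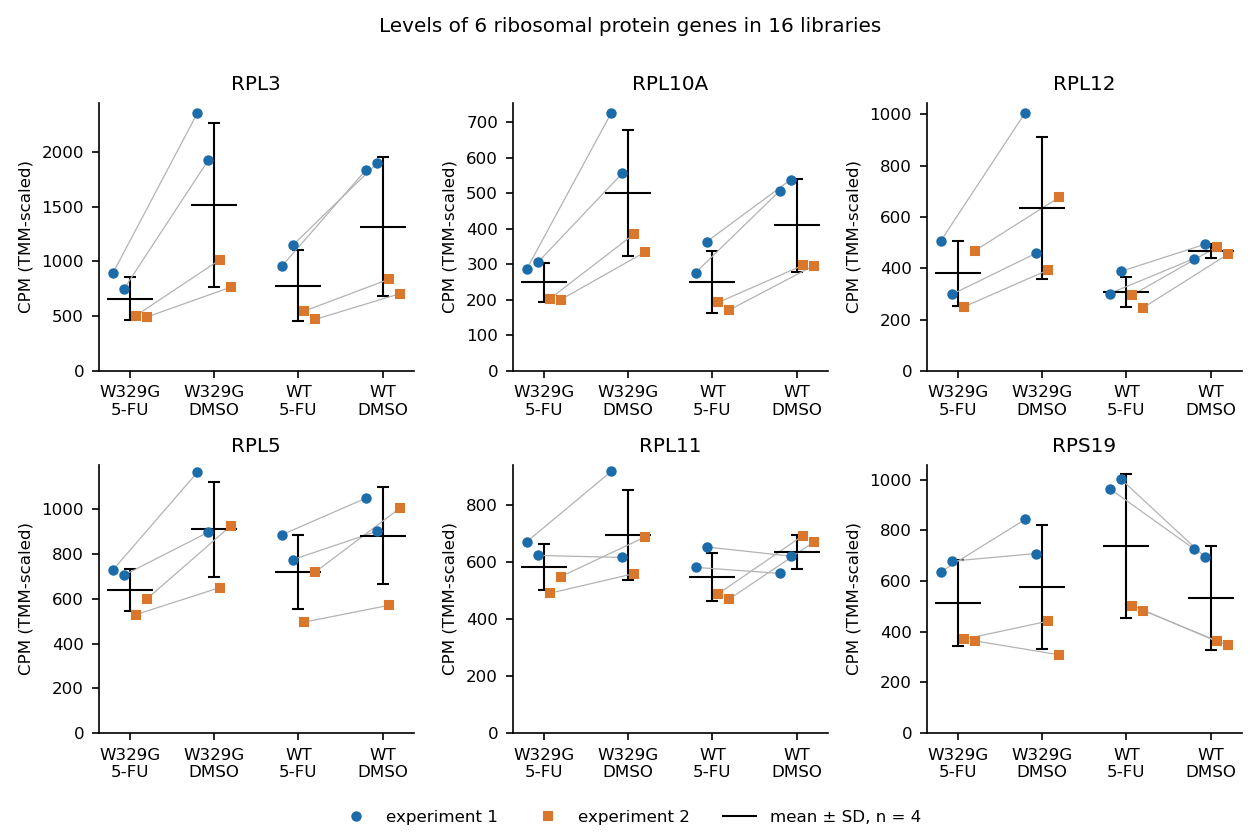
Level (CPM on TMM-scaled library sizes) of 6 ribosomal protein genes in the 16 libraries, with the 5-FU and DMSO library of a line and experiment joined by a grey line and mean ± SD (n = 4) in black. RPL3, RPL10A and RPL12 are lower on 5-FU in every pair, RPL5 also but by less, RPL11 moves both ways, and RPS19 is higher on 5-FU in all 4 WT pairs and in 1 of 4 W329G pairs.

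In W329G cells 2 of the 75 genes, RPL3 and RPL10A, fell on 5-FU past the threshold of 0.05 and none rose, while 0.785% of all 16430 genes were called, 0.59% as lower. RPL10A, the large-subunit protein of the L1 stalk, had 288, 306, 203 and 200.4 CPM on 5-FU, against 726, 556, 385 and 334 CPM on DMSO. Its log2 fold change was -0.97 ± 0.12 (edgeR adjusted p = 0.00158), with -1.11 in experiment 1 alone and -0.85 in experiment 2 alone. Without the pair of W329G replicate 1 it was -0.84 (adjusted p = 0.0283) and RPL3 was -0.99 (adjusted p = 0.0473). Next in size, without passing, came RPL12, of the stalk base (-0.72 ± 0.26, adjusted p = 0.235), RPS9, a small-subunit protein (-0.70 ± 0.16, adjusted p = 0.0563), and RPL13A (-0.58 ± 0.14, adjusted p = 0.0649). At the other end stood RPS15 (0.04 ± 0.14) and RPL8 (-0.04 ± 0.16).
The fitted value was negative for 74 of the 75 genes, with a median of -0.29, against a median of 0.02 over all genes. At an unadjusted p under 0.05 there were 31 members, all lower, and 13.1% of all genes. The shift was uneven among the pairs. In the pair of W329G replicate 1 all 75 genes were lower, with a median change of -0.57 and values from -1.40 (RPL3) to -0.33 (RPL27). In the pairs of replicates 2, 3 and 4, 40, 69 and 57 genes were lower, and the medians were -0.04, -0.30 and -0.22. Over all genes, between 47.8% and 50.3% were lower in these 4 pairs. Without the pair of replicate 1 the fitted median was -0.19 and 65 members were negative. Experiment 1 alone gave a median of -0.32 and experiment 2 alone -0.29. A total of 26 members (34.7%) were lower in all 4 W329G pairs, against 17.3% of all genes.
With a term for each pair, 16 members were called, all lower, while 5.79% of all genes were called lower. They were RPL3, RPL10A, RPL12, RPL13A, RPS9, RPL5, RPL4, RPL14, RPL7, RPS3, RPL13, RPS12, RPS4X, RPS6, RPL15 and RPL6. RPS6 is the small-subunit protein phosphorylated by S6 kinase, and RPS3 lines the mRNA entry channel. When the pair of replicate 1 was left out of that fit, 3 were called, RPL3, RPL10A and RPL12, beside 2.39% of all genes lower. DESeq2 called 8 members, all lower, and 2.09% of all genes lower.

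In WT cells 3 of the 75 genes were called, with RPL3 and RPL10A lower and RPS19 higher, while 8.78% of all genes were called, 5.22% lower and 3.56% higher. RPL10A had 277, 363, 193 and 171 CPM on 5-FU, against 507, 538, 297 and 296 CPM on DMSO, a log2 fold change of -0.71 ± 0.12 (edgeR adjusted p = 0.00158), with -0.70 in each experiment alone. RPS19, a small-subunit protein needed for 18S rRNA maturation and the gene most often mutated in Diamond-Blackfan anaemia, had 965, 1004, 504 and 484 CPM on 5-FU, against 727, 695, 362 and 347 CPM on DMSO. It rose by 0.47 ± 0.12 (adjusted p = 0.0167), with 0.47 in experiment 1 alone and 0.48 in experiment 2 alone, and was higher in 4 of 4 pairs by 0.41 to 0.53. The call did not survive the loss of any 1 WT pair (adjusted p 0.0607 to 0.0891) or library totals without TMM (0.0654), with the change itself between 0.46 and 0.50.
The largest other values were RPL12 (-0.62 ± 0.26, adjusted p = 0.171) and RPS25 (-0.44 ± 0.22, adjusted p = 0.273) below 0, and RPS21 (0.24 ± 0.15, adjusted p = 0.373) and RPL23A (0.22 ± 0.21, adjusted p = 0.616) above. RPS25, which some viral internal ribosome entry sites need, was lower by 1.18 in the pair of WT replicate 4 and unmoved (0.00) in that of replicate 2. Of the 75 members 48 were negative, and their median was -0.08 against 0.01 over all genes, with -0.03 in experiment 1 alone and -0.17 in experiment 2 alone. By pair, 49, 39, 43 and 59 members were lower, with medians of -0.04, -0.02, -0.02 and -0.26, and 21 members (28.0%) were lower in all 4 WT pairs against 21.4% of all genes.
With a term for each pair, 6 members were called (24.8% of all genes), 5 lower, among them RPL3, RPL10A, RPL12 and RPS3, and RPS19 higher. RPL12 in that fit was -0.62 ± 0.11 (adjusted p = 0.001); it had 302, 388, 296 and 247 CPM on 5-FU in WT cells, against 438, 494, 483 and 454 CPM on DMSO, without overlap. DESeq2 called the same 3 members as edgeR and 12.7% of all genes.

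**Figure D3:**
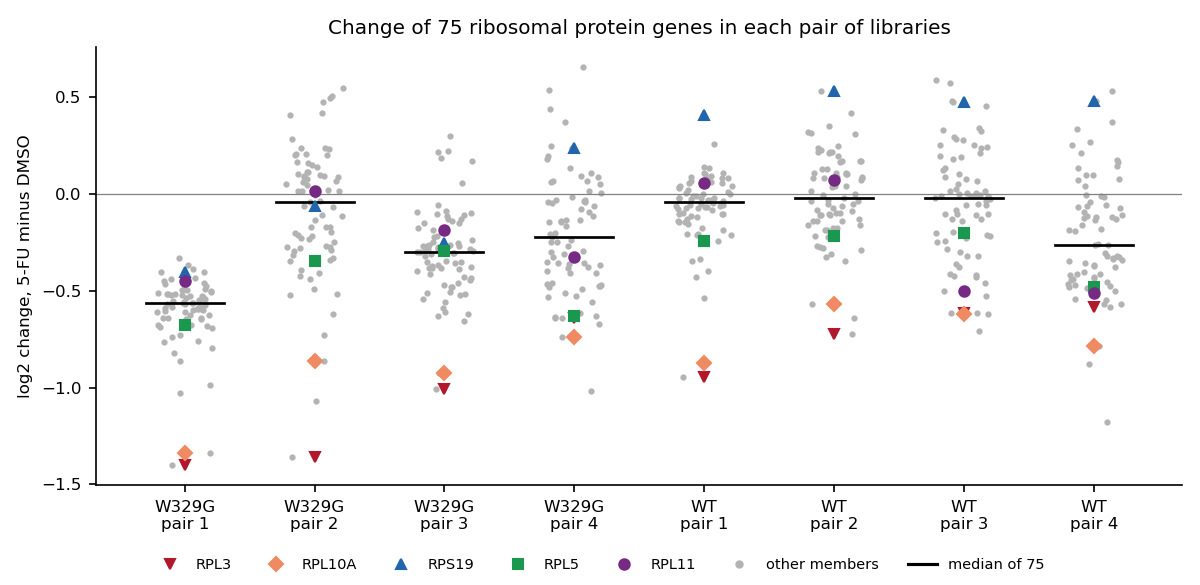
Log2 change (5-FU minus DMSO, log2 CPM with a prior count of 2) of the 75 ribosomal protein genes in each of the 8 pairs of libraries, 4 of W329G and 4 of WT; each dot is 1 gene and the bar is the median. All 75 dots of W329G pair 1 lie below 0 (median -0.57), the other medians lie between -0.30 and -0.02, and RPL3 and RPL10A lie below the median in every pair.

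The test of the difference between the responses called none of the 75 genes in edgeR, beside 1.21% of all genes; 3 members had an unadjusted p under 0.05, all lower, against 9.45% of all genes, and DESeq2 called 1, RPS19, as lower, with 1.22% of all genes. Its value was negative for 69 members and its median -0.23, against 0.01 over all genes. Without the pair of W329G replicate 1 the median was -0.15, with 60 members negative; it was -0.34 in experiment 1 alone and -0.14 in experiment 2 alone. RPS19 had the lowest value, -0.61 ± 0.16 (edgeR adjusted p = 0.0973), with -0.72 in experiment 1 alone and -0.53 in experiment 2 alone. In W329G cells RPS19 had 637, 679, 370.3 and 364 CPM on 5-FU, against 844, 709, 442 and 309 CPM on DMSO, and its pair changes of -0.41, -0.06, -0.26 and 0.24 lay below all 4 of WT. With a term for each pair, RPS19 was called (-0.60 ± 0.15, adjusted p = 0.0298, beside 2.54% of all genes lower), and without W329G replicate 1 it was not (-0.52 ± 0.15, adjusted p = 0.09).
RPS12 followed with -0.60 ± 0.21 (adjusted p = 0.266) and RPS27A, made as a fusion with ubiquitin, with -0.46 ± 0.20 (adjusted p = 0.466). With the pair of W329G replicate 1 left out these were -0.56 and -0.37, and RPS19 was -0.53 (adjusted p = 0.316). RPL28 (0.12 ± 0.30), RPS26 (0.09 ± 0.19) and RPL35 (0.04 ± 0.15) were at the upper end. The changes in the 4 W329G pairs and the 4 WT pairs did not overlap for 4 members, RPL4, RPL7, RPS19 and RPSA, 5.33% of the 75, where 13.1% of all genes did not overlap. Across the 75 genes the fitted responses of W329G and WT correlated with Pearson r = 0.728, a description over genes that share libraries. Between the experiments, each fitted alone, the WT responses of the 75 genes correlated with r = 0.467 and the W329G responses with r = 0.286. The difference between the responses gave r = 0.00848 when compared in the same way.

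Between genotypes on DMSO, with counts summed per line, RPL23A was the 1 member called (1.42% of 17478 genes were, 0.452% as higher). RPL23A, which sits at the polypeptide exit tunnel, had 1128, 936, 457 and 245 CPM in W329G cells, against 500.2, 669, 202 and 149 CPM in WT cells, a log2 difference of 0.99 ± 0.18 (edgeR adjusted p = 0.0406). It is a member with many near-identical copies: pseudogenes held 63.3% of the family's counts in experiment 2 and 4.80% in experiment 1. With those counts added the difference was 0.59 ± 0.13 (adjusted p = 0.0665), and without the pair of W329G replicate 1 it was 0.60 ± 0.22 in the sums (adjusted p = 0.361) and 0.85 ± 0.24 in single libraries (adjusted p = 0.171).
The median of the 75 was 0.27 against 0.00 over all genes, and 4 were negative. Once the pair of W329G replicate 1 was left out the median was -0.05 in the sums, with 43 negative, and 0.10 in single libraries, with 23 negative; single libraries with that pair kept gave 0.20, with 12 negative. Experiment 1 alone, which holds that library, gave 0.31, and experiment 2 by itself 0.12. At an unadjusted p under 0.05 there were 30 members higher and 2 lower, beside 18.9% of all genes. RPS23 (0.76 ± 0.17, adjusted p = 0.0678), of the decoding centre, and RPL26 (0.71 ± 0.28, adjusted p = 0.22), a large-subunit protein near the exit tunnel, had the next largest positive values, and RPL28 (-0.40 ± 0.12, adjusted p = 0.123) and RPS2 (-0.38 ± 0.13, adjusted p = 0.173) the lowest, ahead of RPL32 (-0.01 ± 0.17). DESeq2 on the same sums called 16 members, with RPL28 lower and 15 higher, beside 7.35% of all genes.
On 5-FU none of the 75 passed in edgeR, while 14.4% of all genes did. At an unadjusted p under 0.05, 4 members were higher and 3 lower, against 29.7% of all genes. DESeq2 called RPS19 and RPS2 lower and RPL12 and RPL23A higher, with 19.2% of all genes called. The median was 0.02, with 32 members negative, against -0.01 over all genes. When the pair of W329G replicate 1 was left out it turned to -0.17 in the sums, with 57 negative, and was -0.02 in single libraries, with 40 negative; single libraries with that pair kept gave -0.01, with 38 negative. RPS19 (-0.45 ± 0.14, adjusted p = 0.0597) was lowest, followed by RPS2 (-0.38 ± 0.13) and RPS9 (-0.30 ± 0.16), and RPL23A (0.61 ± 0.18, adjusted p = 0.0551) was highest, followed by RPS23 (0.45 ± 0.17) and RPL7A (0.40 ± 0.15). RPS19 without that pair was -0.62 ± 0.14 in the sums (adjusted p = 0.0524) and -0.48 ± 0.13 in single libraries (adjusted p = 0.031), where it was the 1 member called beside 8.92% of all genes, and RPL23A was 0.35 ± 0.22 and 0.55 ± 0.24 (adjusted p = 0.437 and 0.193). Experiment 1 alone gave a median of -0.03 and experiment 2 alone -0.01.

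Some members differed more between lines of a genotype than with the drug. RPL28, a large-subunit protein, read 584, 370.4, 262 and 367 CPM in W329G cells on 5-FU, against 793, 486, 232 and 407 CPM on DMSO. In experiment 1 cells 2 had less of it than cells 1, and in experiment 2 cells 1 had less than cells 2. RPL12, RPL7A and RPS23 followed the same order, with the smallest of the 4 line differences of RPL12 at 0.77 on the log2 scale and of RPL28 at 0.49. In WT cells RPL19 behaved likewise the other way round, at 630.2, 952, 819 and 571 CPM on 5-FU, against 644, 870.4, 791 and 601 CPM on DMSO. Over all genes the difference between the lines of a genotype correlated negatively between the experiments, with r = -0.572 and -0.482 in W329G (5-FU and DMSO) and -0.30 and -0.187 in WT. Whether the cell numbers name the same lines in both experiments was not tested further. The 5-FU pairs, formed within an experiment, do not depend on it. With the numbers of experiment 2 exchanged no member was called between genotypes under either treatment. Of all genes 0.0115% were then called on DMSO and 1.27% on 5-FU, against 1.42% and 14.4% by label.

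**Figure D4:**
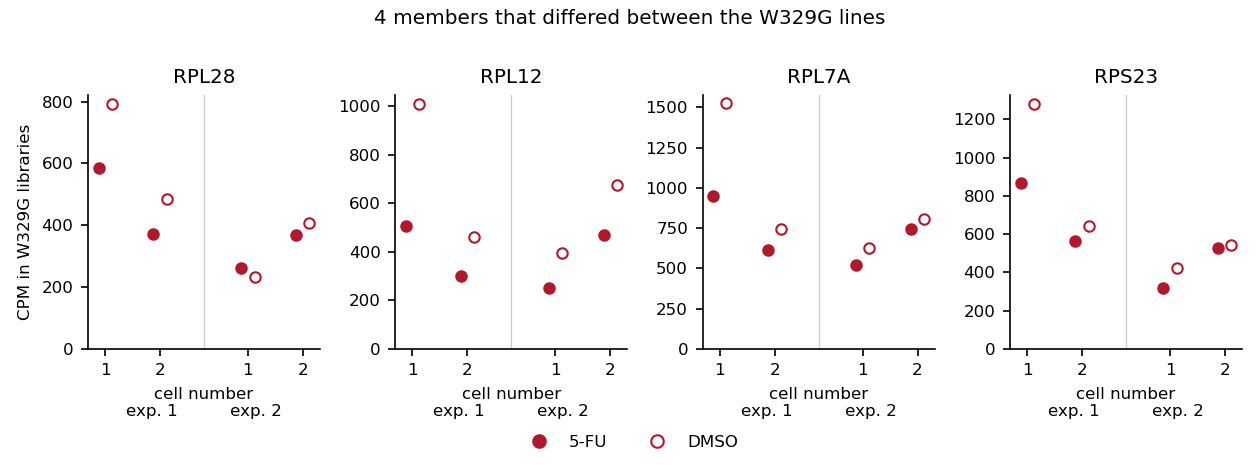
Level (CPM) of 4 ribosomal protein genes in the 8 W329G libraries by cell number and experiment, 5-FU filled and DMSO open. Cells 1 lie above cells 2 in experiment 1 and below them in experiment 2 for all 4 genes, as with RPL28 on DMSO at 793 and 486 CPM, then 232 and 407 CPM.

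Grouped by what they share, large-subunit genes had a median response of -0.29 in W329G and -0.11 in WT, and small-subunit genes -0.30 in W329G and -0.02 in WT. The 51 members with a TOP tract at an annotated start had medians of -0.29 in W329G and -0.06 in WT, and the 9 with a known start and no tract -0.28 and -0.18 in the same order. The 28 members with a snoRNA gene inside had -0.34 in W329G and -0.11 in WT, and the other 47 had -0.27 and -0.05. Members with an annotated nonsense-mediated decay transcript (31) had medians of -0.33 in W329G and -0.17 in WT, and those without (44) -0.28 and -0.01. These splits are descriptions of overlapping groups of genes.

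Other genes of translation and ribosome assembly were read from lists. Of 15 non-ribosomal genes known for TOP mRNAs, 4 fell in W329G and 7 in WT, and none rose, beside 0.59% and 5.22% of all genes lower. The medians of the 15 were -0.58 and -0.42. EIF4B, a cofactor of the helicase of translation initiation, fell by 0.87 ± 0.11 in W329G (edgeR adjusted p = 0.00158) and by 0.71 ± 0.11 in WT (adjusted p = 0.00073). HNRNPA1 fell by 0.78 ± 0.12 in W329G (adjusted p = 0.00785) and by 0.69 ± 0.12 in WT (adjusted p = 0.00144), and NAP1L1, a histone chaperone, by 0.72 ± 0.16 (adjusted p = 0.0455) and 0.65 ± 0.16 (adjusted p = 0.0158). The fourth gene lower in W329G was EIF3L (-0.62 ± 0.14), and in WT PABPC1, the poly-A binding protein, NPM1, EEF2 and EIF3E were also called. With a term for each pair 12 of the 15 fell in W329G and 11 in WT, beside 951 and 2156 of all 16430 genes.
Of 16 genes of 5S RNP assembly and nucleolar stress, 1 fell in W329G and 3 in WT, and none rose. Of all genes 0.59% and 5.22% were lower. The medians of the 16 were 0.06 in W329G, with 5 negative, and -0.15 in WT, with 14 negative. The difference of their responses had a median of 0.24, with 2 negative and none called, beside 1.21% of all genes. NOP53, a 60S assembly factor, fell in both genotypes, by 0.78 ± 0.13 in W329G (edgeR adjusted p = 0.0123) and by 0.76 ± 0.13 in WT (adjusted p = 0.00146). NCL, the nucleolar protein nucleolin, and LAS1L, a pre-rRNA processing factor, fell in WT (-0.51 ± 0.13 and -0.41 ± 0.11). On 5-FU, 3 of these genes were higher in W329G than in WT lines in edgeR, beside 1271 of all 17478 genes. The 3 were BRIX1 (0.81 ± 0.17, adjusted p = 0.0139), RPF2 (0.63 ± 0.17, adjusted p = 0.0415) and MDN1 (0.48 ± 0.14, adjusted p = 0.0489). BRIX1 and RPF2 work in 60S assembly, with RPF2 recruiting the 5S RNP. Of 78 mitochondrial ribosomal protein genes 1 fell in W329G, MRPS6 (-0.72 ± 0.11), and 4 in WT (MRPL37, MRPS6, MRPS34 and MRPL17). Of all genes 0.59% and 5.22% were lower, and the medians of the 78 were 0.01 and -0.12. Between genotypes on 5-FU 5 of the 78 were called, MRPL17, MRPL51 and MRPL41 higher and MRPL36 and MRPL28 lower in W329G, beside 14.4% of all genes. On DMSO MRPL51 was higher and MRPS34 lower, beside 1.42% of all genes. FAU and RACK1, ribosomal proteins under other names, were called in none of the 5 comparisons by edgeR.

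**Figure D5:**
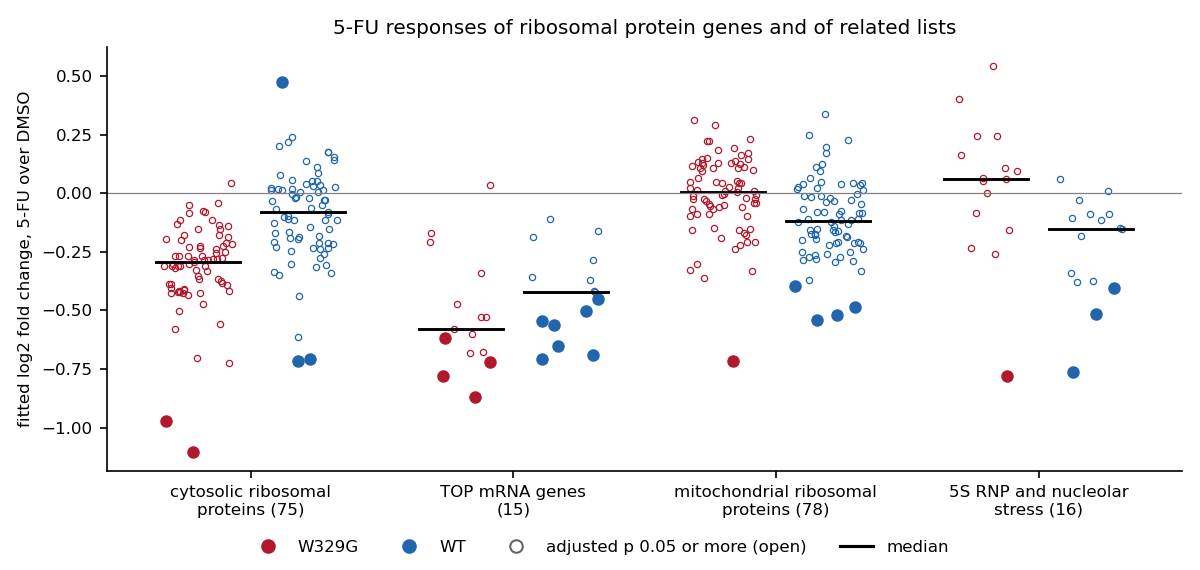
Fitted log2 fold change (5-FU over DMSO) of the 75 cytosolic ribosomal protein genes and of 3 lists of other genes, W329G left of WT in each; filled points have an adjusted p under 0.05 in edgeR and bars are medians. The cytosolic ribosomal proteins lie around -0.29 in W329G and -0.08 in WT, the TOP genes around -0.58 and -0.42.

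Levels per length were compared in experiment 1, whose files give exonic lengths, as CPM per kilobase in the WT DMSO libraries. RPL13A (1341), RPL8 (1299), RPS2 (923) and RPS12 (791) were among the highest of the 75, and RPS29 (28.5), RPL17 (34.0) and RPL36A (38.4) the lowest. Exonic length here counts every annotated transcript, and RPS29 has 9783 such bases. The experiments differed most in single members: RPS10 read 18.1 times, RPL26 15.6 times and RPL9 11.6 times higher in experiment 1 than in experiment 2, and RPL17 read 0.223 times as high. RPS10, for instance, had 316, 343, 19.6 and 22.6 CPM in W329G cells on 5-FU, against 482, 321, 17.2 and 21.6 CPM on DMSO. In experiment 2 pseudogenes took 17.5% of the RPS10 family's counts and 0.42% of the RPL9 family's.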

How the data were processed

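TruSeq libraries were prepared from poly-A RNA (labels' protocols). The authors deposited raw counts per gene, 1 table for each of the 16 libraries. Per the file headers, experiment 1 lists Ensembl genes with coordinates and exonic length, and experiment 2 lists gene symbols. The aligner, the counter and whether strand was used are not stated in the sources used. A build, hg19, is named in the submitters' processing notes, while 96.3% of 56898 genes of experiment 1 have the start and end of GENCODE 29 (GRCh38). All 26 values of 7 or more digits in experiment 2 end in 0; none belongs to a member.

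Symbols joined 28685 genes between experiments, 242 of them through an older symbol. Counts were tested with edgeR 4.0.16 in R 4.3.3 (quasi-likelihood F test, TMM, filterByExpr, Benjamini-Hochberg over all genes, threshold 0.05). The 5-FU responses and their difference used 16 libraries with a term for experiment (16430 genes), and the genotype comparisons used counts summed per line over experiments (8 sums, 17478 genes). Each SE is the size of the log2 fold change over the root of F. Alternatives included DESeq2 1.42.0, other scalings and a term for each pair; scripts were tested on simulated data.

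DMSO and 5-FU libraries of a cell number and experiment were paired because the number names a line: their line differences correlated across genes with r of 0.709 and 0.63 in W329G and 0.492 and 0.596 in WT. The 2 libraries of a group in 1 experiment were no duplicates: a chi-square test of their counts gave 60 to 182 per degree of freedom. The submitters call the experiments independent, but by the cell numbers in the labels the same lines recur in both. Whether the numbers name the same lines was not tested further. The p-values thus reflect only how far these libraries scatter, which may be technical. At these depths counting error is small for the members, and precision is set by how few lines there are.

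The members and lists were chosen with earlier results of these data known. Named were RPL3, RPL5 and RPL11, all members called (or the 8 with the smallest p where over 12 were), the 3 highest and 3 lowest of each comparison, called genes of the lists, MDM2 and CDKN1A; other members named were chosen after their values were seen. Several items go unreported here. Epithelial and neural markers summed to between 4.73 and 86.0 CPM and between 14.8 and 80.7 CPM per library.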

Additional observations from a re-analysis of the deposited data

Results flagged for a closer look

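For the 22 named members and the medians, 138 groups of 4 values were looked at. In 6 of them a library or pair lay far from the other 3. The cut used would pass about 1 in 20 groups drawn from a single distribution. Each group here mixes 2 experiments, which differed in level, so that rate need not hold. The 6 are listed without a claim that they exceed chance. In WT cells on DMSO, RPS2 stood low in replicate 4, at 1589.6 CPM. In W329G cells on DMSO, RPS12 stood high in replicate 1, at 1040.7 CPM, in the library with the highest share of ribosomal protein counts (9.22%). In WT cells on 5-FU, RPS27A stood high in replicate 2, at 810.2 CPM. Among the WT pairs, replicate 4 had the lowest RPL5 change (-0.48) and the lowest median change of the 75 genes (-0.262). Among the W329G pairs, RPS12 changed by 0.0186 in replicate 2 and by -0.51 to -0.59 in the other 3.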

How the results depend on the processing

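The number of ribosomal protein genes called depended on the fit. For the W329G response (2 called, 0.785% of all genes), DESeq2 gave 8 (3.48%) and a replicate block (a term for each pair) 16 (10.9%). Experiment 1 alone (0.0%), experiment 2 alone (0.0%) and no term for experiment (0.0426%) gave 0 each, where hardly any gene was called. Leaving out each pair gave 2, with 0.066% to 0.133% of all genes called. For the WT response (3 called, 8.78% of all genes), the block gave 6 (24.8%). Experiment 1 alone (1.28%), experiment 2 alone (0.0%) and no experiment term (2.44%) gave 0 each. Leaving out each pair gave 1 to 2, with 3.99% to 7.12% of all genes called. For the difference of the responses (0 called, 1.21% of all genes), DESeq2 (2.88%) and the block (6.15%) gave 1 each, RPS19. The block changed no other call of RPL3, RPL5 or RPL11 than that of RPL5 in W329G.

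For W329G against WT on DMSO (1 called, 1.42% of all genes), DESeq2 gave 16 (7.35%) and no filter on low counts 14 (3.83%). Single libraries (0.931%), exchanged cell numbers (0.0115%), experiment 1 alone (0.0%), experiment 2 alone (0.025%) and added pseudogene counts (1.46%) gave 0 each. Without the pair of W329G replicate 1, sums (0.0115%) and single libraries (0.247%) also gave 0. Leaving out WT line 2 gave 15, where 12.8% of all genes were called. Leaving out any other line gave 0, with 0.00557% to 0.768% of all genes called. On 5-FU (0 called, 14.4% of all genes), DESeq2 gave 4 (19.2%), library totals without TMM 2 (15.2%) and no filter 2 (12.7%). Single libraries gave 1 (12.9%), also without the pair of W329G replicate 1 (8.92%). With 1 line left out the median of the 75 was 0.0108 to 0.0802.

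The signs of small differences turned. RPL3 on DMSO became -0.0347 and RPL5 -0.0873 and RPL11 -0.0885 in sums without the pair of W329G replicate 1, where W329G line 1 comes from experiment 2 alone; single libraries without it gave 0.112, -0.0326 and -0.0199. RPL5 on DMSO was -0.000729 in experiment 2 alone and from -0.073 (without WT line 1) to 0.332 when 1 line was left out, and on 5-FU from -0.228 to 0.0207 (without WT line 2). RPL11 on DMSO was -0.13 in experiment 2 alone and from -0.00653 (without W329G line 1) to 0.194 when 1 line was left out, and its WT response was 0.0685 in experiment 1 alone. The RPL11 difference of responses was 0.228 in experiment 2 alone, 0.0585 with library totals, 0.0405 under the block without W329G replicate 1, and from -0.117 to 0.0715 when 1 pair was left out, above 0 without W329G replicate 1, WT replicate 1 or WT replicate 2. None of these was called, and the cause was not tested. Fits without W329G replicate 1 beyond the leave-one-out ones were added after seeing the data. With 2 lines per genotype, differences between genotypes rest on 4 lines.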
